A study of Mus musculus with 13 samples.

Results

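The 9 genes described here carry glucose and lactate across membranes and set how pyruvate is used. They are the glucose transporters Slc2a1 and Slc2a3, the hexokinase Hk1, the monocarboxylate transporters Slc16a1 and Slc16a7, the lactate dehydrogenase subunits Ldha and Ldhb, and the pyruvate dehydrogenase kinases Pdk1 and Pdk2. They were matched by symbol, and all 9 were found among the 32285 genes of the count matrices. Their UMI counts (distinct RNA molecules) came from nuclei of whole frozen hippocampus of 13 female C3B6F1 hybrid mice, 1 library per mouse, which the sample labels spell C3HB6F1. Ad libitum feeding was studied at 5 months of age (young, n = 3) and at 24 months (old, n = 3). All restricted mice were also 24 months old. Dietary restriction had begun at 20 months in the acute group (n = 3) and at 5 months in the long-term group (n = 4). The labels name no genetic modification in any group.

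Glucose crosses the blood-brain barrier through the transporter encoded by Slc2a1, and neurons take it up mainly through the high-affinity transporter encoded by Slc2a3. Hexokinase traps it in the cell as glucose 6-phosphate. Pyruvate from glycolysis is either reduced to lactate by lactate dehydrogenase or passed to mitochondria by the pyruvate dehydrogenase complex, which pyruvate dehydrogenase kinases switch off by phosphorylation. Lactate and ketone bodies move between cells through the monocarboxylate transporters MCT1 (Slc16a1) and the higher-affinity MCT2 (Slc16a7). In the brain, astrocytes and oligodendrocytes are known as lactate sources and neurons as users.

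Slc2a1, Slc16a1 and Ldha had their highest level in the same cell class, the endothelial-like nuclei, and Ldhb had its highest in astrocyte-like nuclei. The promoters of these 4 genes are therefore shown, as the 200 bases that end 51 bases before the annotated start, from RefSeq on GRCm38.p6. Capitals mark each match to ACGTG on either strand (CACGT on the printed strand), a form of the core of the hypoxia response element. The form with G as its first base was not searched for. Overlapping matches run together as CACGTG. The windows are chr4:119108495-119108694 (+ strand) for Slc2a1, chr3:104638414-104638613 (+ strand) for Slc16a1, chr7:46845554-46845753 (+ strand) for Ldha and chr6:142508008-142508207 (- strand) for Ldhb.
Slc2a1: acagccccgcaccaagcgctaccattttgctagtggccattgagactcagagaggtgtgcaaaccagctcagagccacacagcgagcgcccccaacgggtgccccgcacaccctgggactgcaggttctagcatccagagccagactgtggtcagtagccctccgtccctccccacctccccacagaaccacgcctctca
Slc16a1: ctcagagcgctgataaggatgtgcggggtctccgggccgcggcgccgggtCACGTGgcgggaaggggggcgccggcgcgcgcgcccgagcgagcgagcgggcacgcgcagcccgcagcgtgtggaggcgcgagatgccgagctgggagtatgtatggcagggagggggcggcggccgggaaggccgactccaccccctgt
Ldha: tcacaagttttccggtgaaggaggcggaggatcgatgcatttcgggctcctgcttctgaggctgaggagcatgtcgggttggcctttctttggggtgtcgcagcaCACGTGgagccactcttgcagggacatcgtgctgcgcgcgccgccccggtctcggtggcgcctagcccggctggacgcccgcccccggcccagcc
Ldhb: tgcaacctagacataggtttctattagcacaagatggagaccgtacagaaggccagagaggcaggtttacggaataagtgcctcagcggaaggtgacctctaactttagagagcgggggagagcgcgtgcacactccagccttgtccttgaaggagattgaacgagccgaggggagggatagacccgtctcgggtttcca
In these windows Slc16a1 and Ldha each held 1 CACGTG, which reads the same on both strands and counts as 2 overlapping matches. Slc2a1 and Ldhb held 0 matches to ACGTG. RefSeq lists another Ldha start, whose window at chr7:46846832-46847031 held 0 and is not shown. Among all 32851 promoter windows of this length, 12.9% held at least 1 match. Promoter entries matched 7 of the 9 genes, with 11 entries in all, and 3 of the 11 held the motif. The third was an entry of Pdk2, also with 1 CACGTG, which is not shown. A match describes letters only.

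The matrices held 105759 barcodes and 742437104 UMIs, with 38546292 to 80538090 UMIs per library, and 98041 nuclei remained after filtering and removal of likely doublets. Clusters were named from marker genes, and names are written as X-like. Named classes held 82009 nuclei, and 16032 nuclei in 13 clusters stayed unnamed. The 9 genes and a list of related genes were kept out of the clustering. Of 104066 distinct barcode sequences, 1351 occurred in more than 1 library. The 4 libraries numbered 1, with 1 in each group, stood apart: oligodendrocyte-like nuclei were 0.760% to 3.86% of their named nuclei, against 9.27% to 26.5% in the other 9. The endothelial-like cluster was led by Flt1, Slco1a4 and Adgrl4. Its 10 leading genes also held Cldn5 of endothelial tight junctions, Hbb-bs and Hba-a1 of red cells and Rgs5 of mural cells. Drd2 and Calb2, genes of hilar mossy cells, led no cluster, and no class of such cells was named. Whether the CA3-like class or the unnamed nuclei held such cells was not tested.

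Levels are given as CPM, the gene's UMIs scaled to a fixed total of all UMIs of that class in 1 mouse, as mean ± SD over mice with at least 20 nuclei of the class. They are not corrected for gene length and are compared between classes for 1 gene, not between genes. Across 14 classes, Slc2a1 stood at 1011 ± 306 CPM in endothelial-like nuclei (n = 9) and at 36.6 ± 15.4 CPM in astrocyte-like nuclei (n = 13). Oligodendrocyte-like nuclei followed at 27.2 ± 7.64 CPM. In CA1-like, CA3-like, granule-like, inhibitory-like and subicular or cortical neuron-like nuclei, Slc2a1 lay between 2.86 and 5.86 CPM. Endothelial-like exceeded astrocyte-like levels by 4.75 on the log2 scale in 9 of 9 mice (exact paired sign-flip test, two-sided, p = 0.00391, the smallest 9 mice allow, adjusted p = 0.00434). Astrocyte-like exceeded granule-like levels by 2.87 in 13 of 13 mice (exact p = 0.000244, the smallest 13 mice allow, adjusted p = 0.000376). These levels were not used to form the classes.

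**Figure D1:**
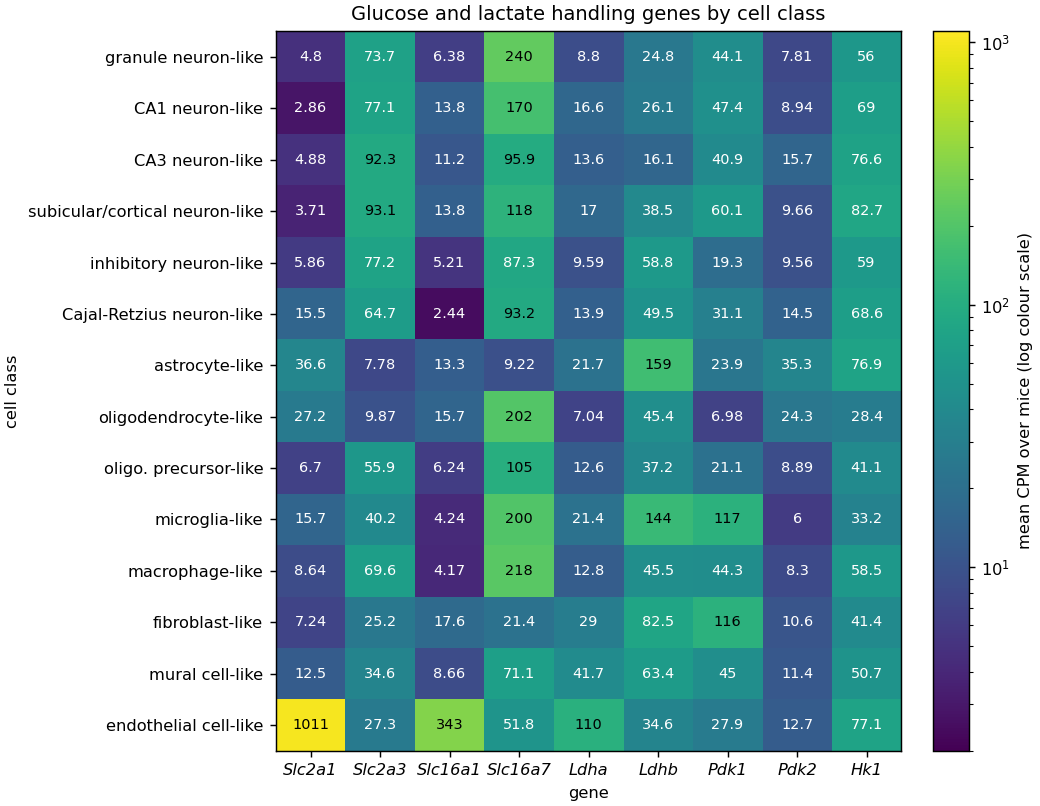
Mean CPM of each gene (columns) in each cell class (rows), with the value printed in each cell and a log colour scale. Slc2a1 (1011), Slc16a1 (343) and Ldha (110) are highest in endothelial cell-like nuclei, and Ldhb is highest in astrocyte-like nuclei (159).

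Slc2a3 was highest in subicular or cortical, CA3, inhibitory, CA1 and granule neuron-like nuclei and lowest in astrocyte-like and oligodendrocyte-like nuclei. Its mean was 93.1 ± 5.97 CPM in subicular or cortical neuron-like, 92.3 ± 10.9 in CA3-like, 77.2 ± 6.47 in inhibitory-like, 77.1 ± 5.69 in CA1-like and 73.7 ± 4.52 in granule-like nuclei (n = 13 each). The first pair, and the last 3 among themselves, differed by less than the larger SD of each neighbouring pair. Macrophage-like nuclei stood at 69.6 ± 23.0 CPM, Cajal-Retzius neuron-like nuclei at 64.7 ± 25.6 (n = 7) and oligodendrocyte precursor-like nuclei at 55.9 ± 13.4. Slc2a3 was low in oligodendrocyte-like (9.87 ± 3.77) and astrocyte-like nuclei (7.78 ± 4.04). Granule-like exceeded astrocyte-like levels by 3.28 and oligodendrocyte-like levels by 2.82 on the log2 scale, each in 13 of 13 mice (exact p = 0.000244, adjusted p = 0.000376).

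With each nucleus thinned to 1000 UMIs, 7.22% of granule-like and 0.748% of astrocyte-like nuclei had a Slc2a3 UMI (95% Wilson interval for the latter 0.575% to 0.972%, counting error only). Unthinned, these shares were 35.8% at a median of 6307 UMIs and 1.88% at a median of 2700. Oligodendrocyte-like nuclei, the other class with a low level, stood at 1.07% after thinning. No background from free RNA was measured, so these low shares are not read as expression. Hk1, which phosphorylates glucose, was the most even of the 9 genes across classes. It ranged from 28.4 ± 7.18 CPM in oligodendrocyte-like to 82.7 ± 6.84 CPM in subicular or cortical neuron-like nuclei, and every neighbouring pair in the order of 14 classes differed by less than the larger SD. On the log2 scale granule-like minus astrocyte-like Hk1 was -0.44 (lower in 13 of 13 mice), and granule-like minus oligodendrocyte-like Hk1 was 0.95 (higher in 13 of 13; exact p = 0.000244, adjusted p = 0.000376 for both).

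Slc16a1 was likewise highest in endothelial-like nuclei, at 343 ± 135 CPM (n = 9). The next class, fibroblast-like, stood at 17.6 ± 6.21 CPM, followed by oligodendrocyte-like (15.7 ± 7.68), subicular or cortical neuron-like (13.8 ± 5.10), CA1-like (13.8 ± 2.62) and astrocyte-like nuclei (13.3 ± 4.54). These 5 classes differed from their neighbours by less than the larger SD. Oligodendrocyte-like nuclei, the glia in which MCT1 is best known, exceeded granule-like nuclei by 1.24 on the log2 scale in 12 of 13 mice (exact p = 0.000732, adjusted p = 0.000915). No difference from astrocyte-like nuclei was detected (0.13 ± 0.74, SD, higher in 7 of 13 mice, exact p = 0.528, adjusted p = 0.528). Within the 4 libraries numbered 1 that difference was -0.31, and within the other 9 it was 0.33. Endothelial-like exceeded oligodendrocyte-like levels by 4.58 in 9 of 9 mice (exact p = 0.00391, adjusted p = 0.00434).

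Slc16a7 was high in neuron-like, oligodendrocyte-like and microglia-like nuclei and lowest in astrocyte-like nuclei. Its mean was 239.9 ± 20.3 CPM in granule-like, 218 ± 68.3 in macrophage-like, 202 ± 28.4 in oligodendrocyte-like, 200.2 ± 53.8 in microglia-like and 170.5 ± 14.8 in CA1-like nuclei. Neighbours among these 5 differed by less than the larger SD. CA3-like (95.9 ± 12.8) and inhibitory-like nuclei (87.3 ± 7.36) were lower, and astrocyte-like nuclei stood at 9.22 ± 5.31. Granule-like exceeded astrocyte-like levels by 4.77 on the log2 scale in 13 of 13 mice (exact p = 0.000244, adjusted p = 0.000376), oligodendrocyte-like levels by 0.25 in 12 of 13 (exact p = 0.000488, adjusted p = 0.000651) while CA1-like minus granule-like was -0.49, lower in 13 of 13 (exact p = 0.000244, adjusted p = 0.000376). After thinning, 21.3% of granule-like, 18.0% of oligodendrocyte-like and 0.925% of astrocyte-like nuclei had a UMI, against 73.0%, 29.7% and 2.08% unthinned. Of the 6 granule neuron markers, Dock10 was higher in oligodendrocyte-like than in granule-like nuclei (3312 against 1144 CPM) and Prox1 was not far below (224 against 296 CPM). The others were lower: Rfx3 at 275 against 1828 CPM, C1ql2 at 11.5 against 33.6, Glis3 at 25.0 against 965 and Trpc6 at 20.0 against 548. Macrophage-like nuclei also held other classes' markers: granule neuron markers stood at 37.6% of their level in granule-like nuclei, beside 37.8% in microglia-like and 80.3% in oligodendrocyte-like nuclei, and inhibitory neuron markers summed to 3043 CPM against 2193 CPM for macrophage markers. The part of such RNA in the macrophage-like values was not tested.

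**Figure D2:**
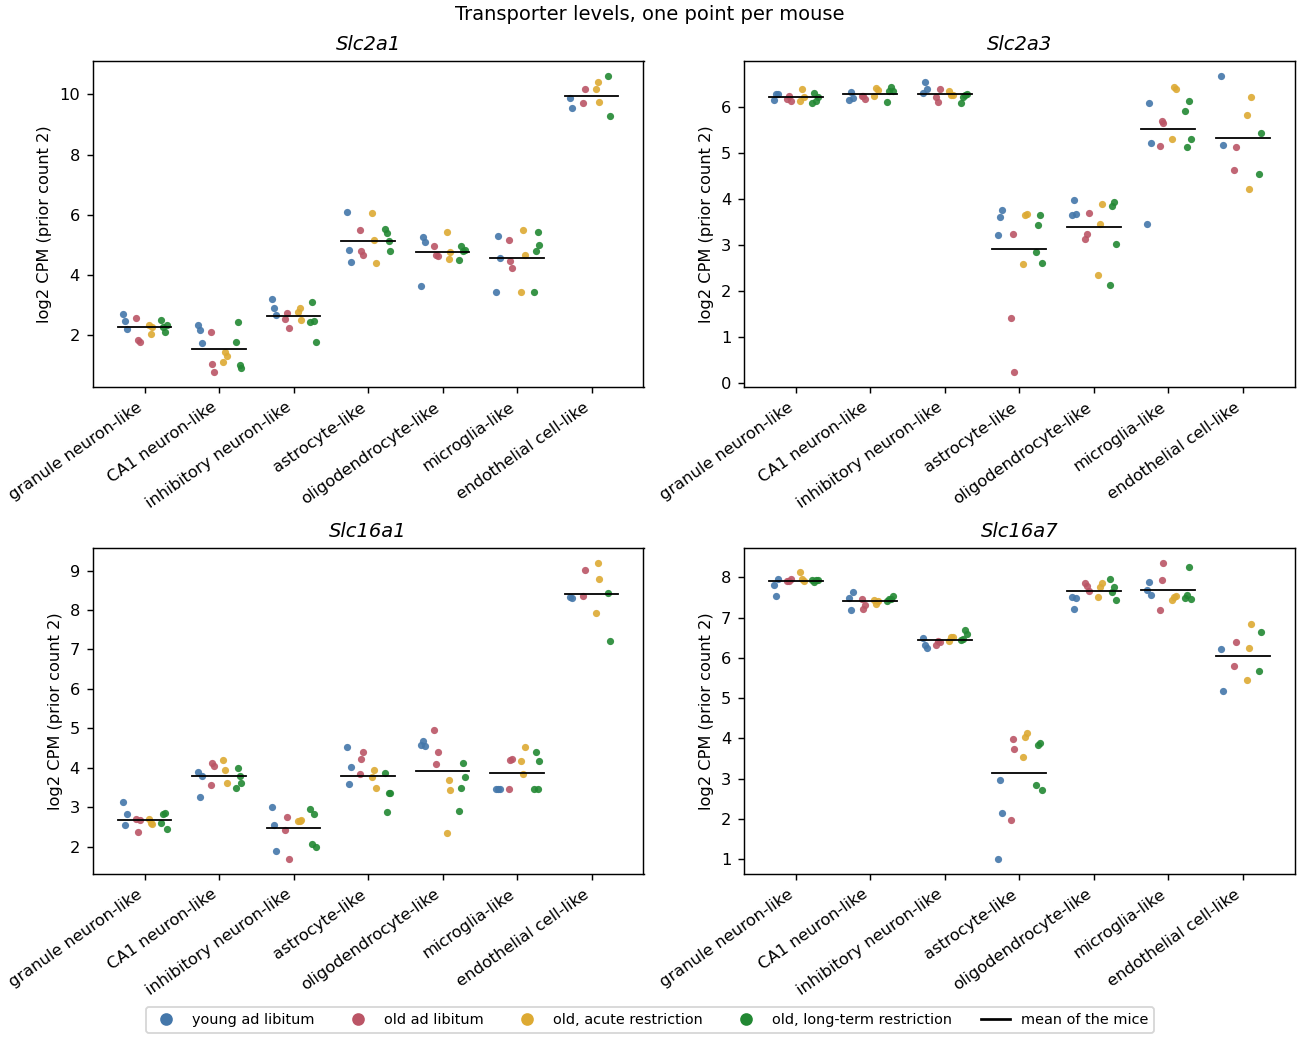
Log2 CPM (vertical axis) of the 4 transporter genes in 7 cell classes (horizontal axis), with 1 point per mouse coloured by group and a black line at the mean. Slc2a1 and Slc16a1 are highest in every endothelial cell-like sum, Slc2a3 is high in the neuron-like classes, and Slc16a7 is lowest in astrocyte-like nuclei. In oligodendrocyte-like nuclei, young and old ad libitum points of Slc16a7, and acute restriction and old ad libitum points of Slc16a1, do not overlap.

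Ldhb, the subunit that favours conversion of lactate to pyruvate, was highest in astrocyte-like (159 ± 26.9 CPM) and microglia-like nuclei (144 ± 39.2). Fibroblast-like nuclei stood at 82.5 ± 55.1 and inhibitory-like at 58.8 ± 17.8. The lowest classes were CA1-like (26.1 ± 9.55), granule-like (24.8 ± 5.36) and CA3-like nuclei (16.1 ± 4.42). On the log2 scale granule-like minus astrocyte-like Ldhb was -2.69, lower in 13 of 13 mice (exact p = 0.000244, adjusted p = 0.000376), and granule-like minus oligodendrocyte-like Ldhb was -0.83, lower in 12 of 13 (exact p = 0.000488, adjusted p = 0.000651).

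Ldha, the subunit that favours lactate formation, was highest in endothelial-like nuclei (109.7 ± 34.8 CPM, n = 9), beyond the SD of mural-like nuclei next in order (41.7 ± 33.1). It was 21.7 ± 6.85 CPM in astrocyte-like, 8.80 ± 2.69 in granule-like nuclei and 7.04 ± 3.69 in the oligodendrocyte-like class. Granule-like minus astrocyte-like Ldha was -1.36 on the log2 scale, lower in 13 of 13 mice (exact p = 0.000244, adjusted p = 0.000376). Granule-like and oligodendrocyte-like levels could not be told apart (0.17 ± 0.46, higher in 9 of 13 mice, exact p = 0.212, adjusted p = 0.224), although with a prior count of 0.5 the difference was 0.37 with an adjusted p of 0.0303. Ldha has 2 named pseudogenes, which could take or lend reads.

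Pdk1 was highest in microglia-like (117 ± 23.2 CPM) and fibroblast-like nuclei (116 ± 25.1), intermediate in subicular or cortical neuron-like (60.1 ± 6.18), CA1-like (47.4 ± 8.39) and granule-like nuclei (44.1 ± 4.38), and lowest in oligodendrocyte-like nuclei (6.98 ± 3.14). Granule-like exceeded oligodendrocyte-like levels by 2.58 and astrocyte-like levels by 0.86 on the log2 scale, each in 13 of 13 mice (exact p = 0.000244, adjusted p = 0.000376). Pdk2 was highest in astrocyte-like and oligodendrocyte-like nuclei. It stood at 35.3 ± 12.6 CPM in astrocyte-like and 24.3 ± 6.46 in oligodendrocyte-like nuclei, and the other 12 classes lay between 6.0 and 15.7 CPM. Granule-like minus astrocyte-like Pdk2 was -2.11 and granule-like minus oligodendrocyte-like Pdk2 was -1.66, each lower in 13 of 13 mice (exact p = 0.000244, adjusted p = 0.000376).

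Ratios of paired isoforms within a mouse were compared between classes. The log2 ratio of Slc2a3 to Slc2a1 was 3.93 ± 0.30 in granule-like, -2.22 ± 1.21 in astrocyte-like, -1.39 ± 0.77 in oligodendrocyte-like and -4.64 ± 1.05 in endothelial-like nuclei. For Slc16a7 to Slc16a1 it was 5.22 ± 0.24, -0.66 ± 1.22, 3.73 ± 0.83 and -2.35 ± 0.76 in the same order. For Pdk2 to Pdk1 it was -2.48 ± 0.20, 0.49 ± 0.81, 1.76 ± 0.76 and -0.64 ± 0.79. For Ldhb to Ldha it was 1.52 ± 0.19, 2.85 ± 0.33, 2.52 ± 0.53 and -1.38 ± 0.94, so endothelial-like nuclei were the class with the lowest value of the 14. The endothelial-like ratios rest on few UMIs over 9 mice, such as 23 of Slc2a3, 11 of Pdk2, 29 of Pdk1 and 35 of Ldhb. At such counts the prior count of 2 draws a log2 ratio towards 0. All 8 ratio comparisons of granule-like with astrocyte-like or oligodendrocyte-like nuclei passed, each with the same direction in 13 of 13 mice (exact p = 0.000244, adjusted p = 0.000244). In all, 18 of 20 comparisons of a level passed.

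**Figure D3:**
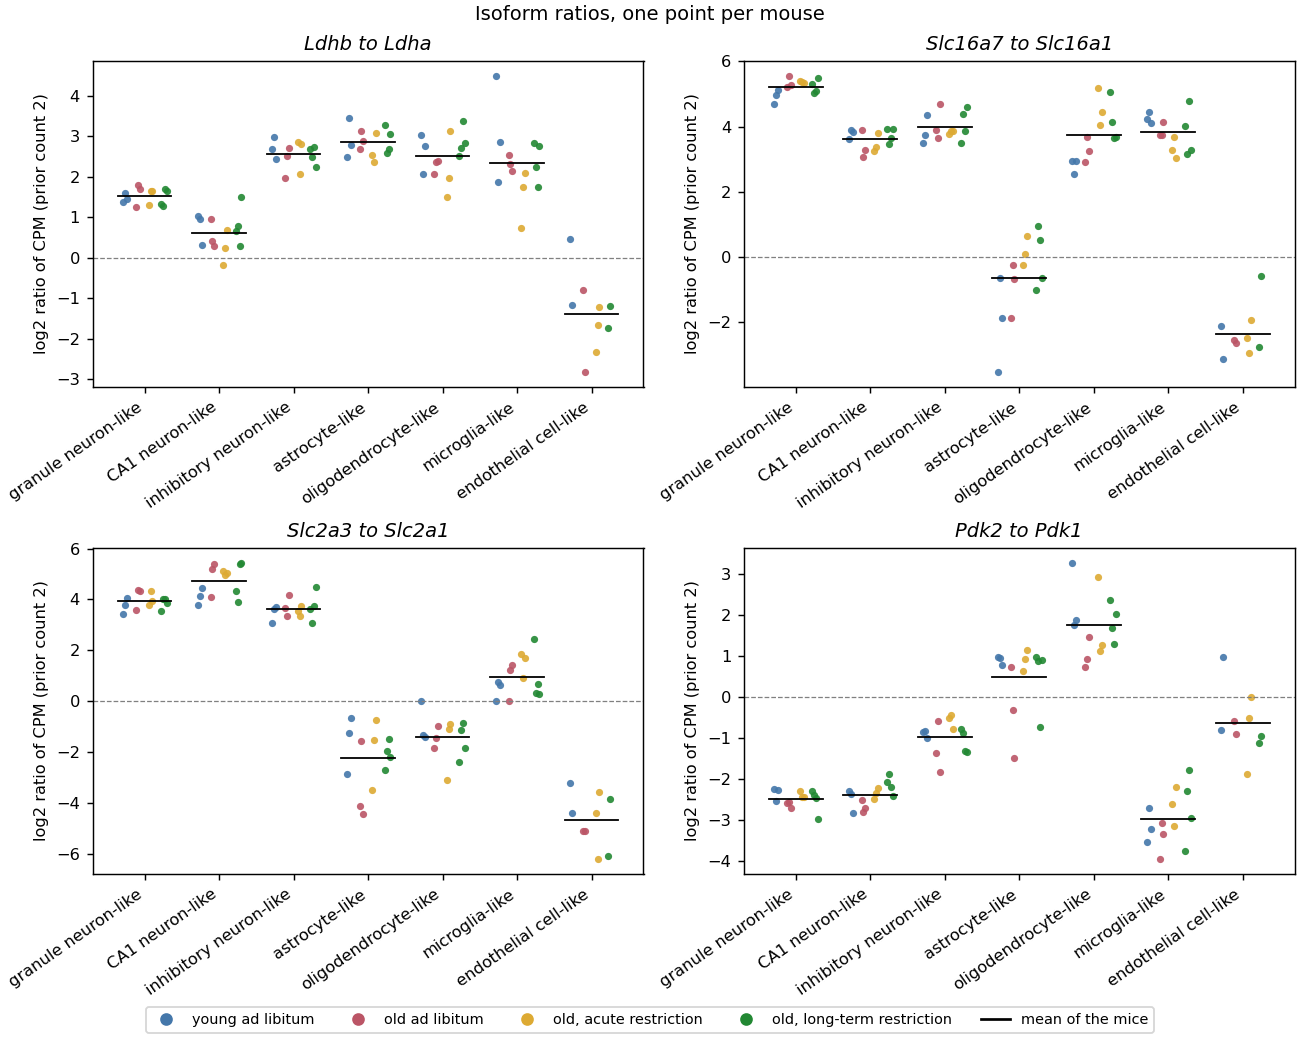
Log2 ratio of CPM (vertical axis) for 4 isoform pairs in 7 cell classes (horizontal axis), with 1 point per mouse coloured by group, a black line at the mean and a dashed line at equal CPM. The Slc2a3 to Slc2a1 ratio is 3.93 in granule neuron-like and -2.22 in astrocyte-like nuclei, with no overlap between those classes.

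Clusters of the same class also differed. Every pair of clusters within a class was compared for each gene within mice, a family of 81 comparisons chosen after the data had been seen, and 35 passed. Among inhibitory-like nuclei, the cluster led by Nxph1 and Sst had the most Ldhb and Hk1. Ldhb was 76.4 ± 21.8 CPM there, 40.3 ± 15.2 in the cluster led by Vip and 44.6 ± 16.5 in the cluster led by Reln, and the first was highest in 13 of 13 mice against each (exact p = 0.000244, adjusted p = 0.0018). Hk1 was 69.9 ± 9.16, 53.2 ± 7.21 and 43.0 ± 4.91 CPM in the same order, higher in the first cluster in 12 of 13 mice (exact p = 0.000488, adjusted p = 0.00282) and 13 of 13 mice (exact p = 0.000244, adjusted p = 0.0018), and Slc2a3 was 90.2 ± 10.8, 64.3 ± 11.2 and 63.9 ± 7.65.

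Among granule-like nuclei, Pdk1 was 58.0 ± 8.06 CPM in the cluster led by Trpc6 and Sv2c and 35.4 ± 6.35 and 33.6 ± 5.67 in the other 2 (exact p = 0.000244, adjusted p = 0.0018, higher in 13 of 13 mice against each). The smaller CA1-like cluster, led by Cpa6 and C1qtnf7, had more Pdk2 than the main CA1-like cluster (14.1 ± 3.21 against 6.61 ± 1.76 CPM, 11 of 11 mice, exact p = 0.000977, adjusted p = 0.00344). The fibroblast-like class was 2 unlike clusters. Pdk1 was 165 ± 24.7 CPM in the one led by Slc6a20a (8 mice) and 27.8 ± 21 in the one led by Bnc2 and Slc47a1 (5 mice), while Slc16a1 was 0.750 ± 2.12 and 50.7 ± 25.5 CPM. In the 5 shared mice neither difference could pass (exact p = 0.0625, the smallest 5 mice allow).

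By Pearson's r of mean log2 CPM over the 14 classes, among 11934 genes, the genes most like Slc2a1 were Hspa8 (0.96), Rpl27a (0.96) and Rps10 (0.96), and those most like Slc2a3 were Tmem63c (0.97), Fam78b (0.95) and Gm20642 (0.95). For Slc16a1 they included Dynll1 (0.95) and Ccdc85b (0.95), and those most like Slc16a7 were Strn4 (0.84), Spns2 (0.83) and March1 (0.83). Ldha was most like Pttg1ip (0.97), Irf2bpl (0.96) and Lef1 (0.95), and Ldhb most like Tet2 (0.91), 1110019D14Rik (0.91) and Idh2 (0.91). Pdk1 was most like Rai1 (0.92), Gm39469 (0.88) and Galnt11 (0.88), Pdk2 most like Fabp5 (0.94), Psph (0.93) and Spata24 (0.93), and Hk1 most like Mok (0.89), Jakmip1 (0.89) and Lrp8 (0.88). The 14 points share libraries, and the prior count raises genes of few UMIs in the smallest classes, so these values are descriptions.

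The study asked how age and the timing of dietary restriction change hippocampal expression. With edgeR's quasi-likelihood test, 11 classes could be fitted, and the 9 genes gave 76 of 99 possible pairs of a gene and a class. All 9 were tested in 7 classes, 6 in oligodendrocyte precursor-like, 3 each in microglia-like and endothelial-like, and 1 in mural-like nuclei. In old against young mice, 0 of the 76 pairs passed an adjusted p of 0.05, where 1.49% of 109845 pairs over all genes did (7.83% in oligodendrocyte-like and 3.22% in granule-like nuclei). Unadjusted p was below 0.05 for 7 of the 76 (9.21%, against 18.0% over all genes), and DESeq2 also called 0, giving no adjusted p for 18 pairs. The median log2 fold change was -0.01 over the 76 pairs and -0.02 over all genes. Depth differed between young and old ad libitum mice. Median UMIs per nucleus were 3787 to 6472 in young and 7013 to 12767 in old ad libitum mice in the granule-like class. They were 1182 to 1661 and 1988 to 3169 in the oligodendrocyte-like class. In the subicular or cortical neuron-like class they were 4091 to 7622 and 8433 to 14861. Over all nuclei kept, library medians were 3688 to 6948.5 in young and 6620.5 to 11195 in old ad libitum mice. Restricted mice, also 24 months old, had 5192 to 7536.5 (acute) and 5958 to 8629 (long-term). The part of depth in the results below was not tested beyond a fit with the class median as a covariate.

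Among the 9 genes, the smallest adjusted p in ageing was that of Slc16a7 in oligodendrocyte-like nuclei. Young mice had 181, 148 and 178 CPM and old mice 233, 221 and 200.7, so the groups did not overlap. The difference was 0.43 on the log2 scale (SE 0.16, 95% interval 0.11 to 0.75, edgeR adjusted p = 0.0864). It was 0.34 with median UMIs in the fit (adjusted p = 0.891) and 0.06 once a trend with gene span was removed (adjusted p = 0.94). It passed only with a replicate block. That fit is described at the end, where replicate numbers were not taken to pair the mice. The 6 granule neuron markers summed to 3126 to 3946 CPM in oligodendrocyte-like nuclei of young and 4123 to 4333 of old mice, with none at 0, and their part in the result was not tested. Dock10 alone made up 3312 of the mean sum of 3867 CPM in this class. In granule-like nuclei Slc16a7 was 225, 186 and 248 CPM in young and 239.6, 241 and 248 in old mice, with overlap (0.30, SE 0.12, adjusted p = 0.146), a difference of 0.07 with median UMIs in the fit (adjusted p = 0.92).

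In subicular or cortical neuron-like nuclei, Slc16a1 was 19.4, 24.5 and 16.0 CPM in young and 11.7, 9.18 and 10.9 in old mice (log2 fold change -0.79, SE 0.25, 95% interval -1.33 to -0.26, edgeR adjusted p = 0.17). Ldha was 29.5, 21.7 and 22.1 CPM in young and 14.8, 14.9 and 12.6 in old mice of the same class (-0.69, SE 0.32, adjusted p = 0.267). Both sets of groups were separate, with old below young, and neither passed. Endothelial cell markers summed to 15.1 to 47.5 CPM in this class in young and 12 to 15.5 in old mice. Astrocyte markers went the other way, with 698 to 891 CPM in young and 903 to 1078 CPM in old mice, and Slc1a2 made up 685 of their mean sum of 900.4 CPM over all mice. The part of either list in these results was not tested. Hk1 in inhibitory-like nuclei was 54.2, 54.8 and 51.1 CPM in young and 54.0, 65.0 and 63.1 in old mice, an overlap by 1 library (0.28, adjusted p = 0.195).

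Slc2a3 in astrocyte-like nuclei was 8.16, 10.9 and 12.4 CPM in young and 1.49, 8.31 and 0 in old mice, with overlap by 1 library (-1.68, adjusted p = 0.238), at the low level described above. Other pairs were bounded more tightly. In granule-like nuclei, the best sampled class, the 95% intervals for old minus young were -0.08 to 0.29 for Slc2a3, -0.15 to 0.35 for Pdk1 and -0.06 to 0.49 for Hk1. For Slc2a1 in endothelial-like nuclei the interval was -0.83 to 1.13, with 2 mice a group. Over the 76 pairs the half-width of the interval had a median of 0.57 and ran from 0.19 to 2.92. All old libraries lay below all young ones in 4 of the 76 pairs and above them in 2, and 70 pairs overlapped. The share of pairs without overlap over all genes was not counted.

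**Figure D4:**
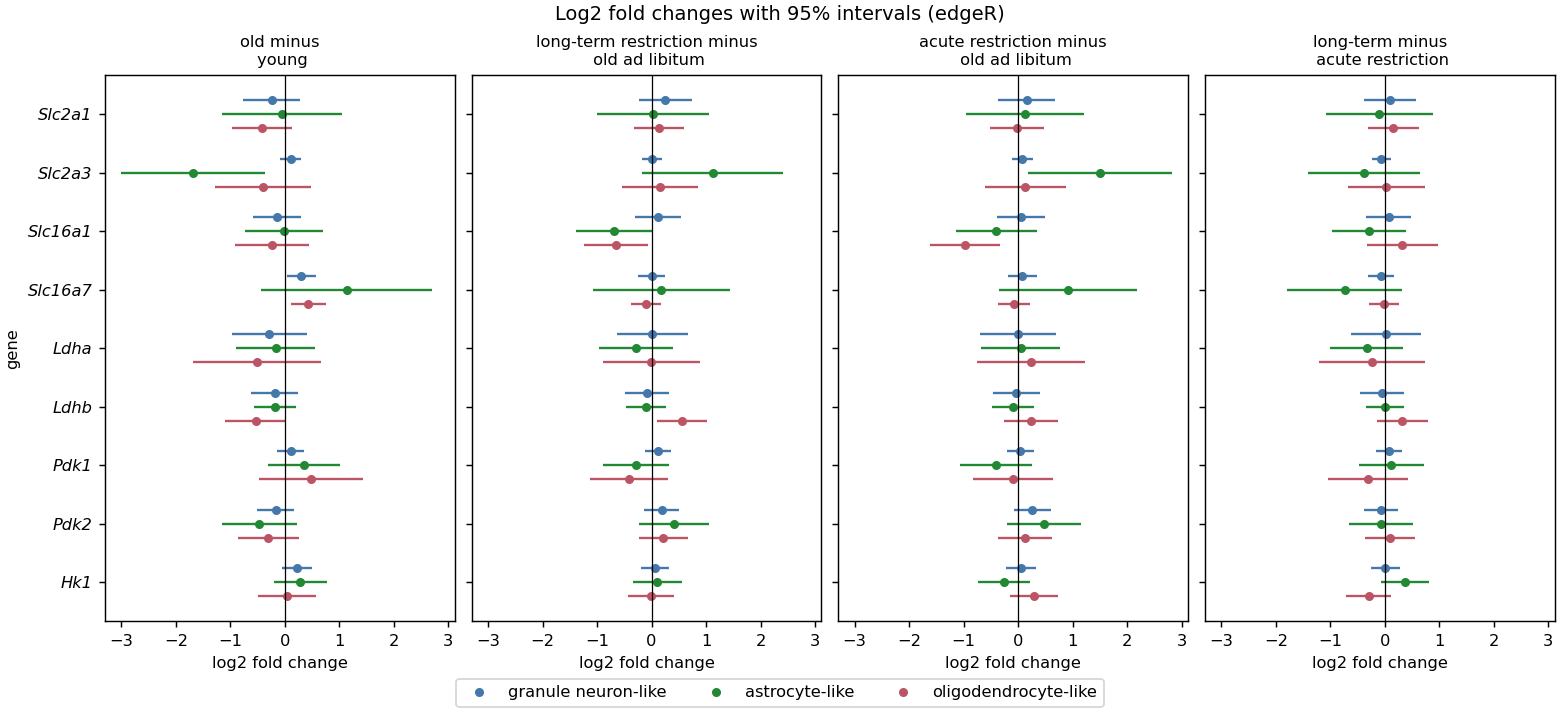
Log2 fold change (horizontal axis) with 95% interval for each of the 9 genes (vertical axis) in 4 comparisons (panels), coloured by granule neuron-like, astrocyte-like and oligodendrocyte-like nuclei. Slc16a1 in oligodendrocyte-like nuclei lies at -0.98 under acute restriction, and no point passed the adjusted test.

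Long-term and acute restriction were each compared with old mice fed ad libitum, the group also used for ageing, so these comparisons share 3 libraries. Under long-term restriction 0 of 76 pairs passed (0.0473% of pairs over all genes did, and 0.396% in oligodendrocyte-like nuclei), 3 (3.95%, against 4.97% of all genes tested) had an unadjusted p below 0.05 and DESeq2 called 0, with no adjusted p for 11. Under acute restriction 0 of 76 passed (0.222% over all genes, 2.00% in oligodendrocyte-like and 0.0755% in oligodendrocyte precursor-like nuclei), 2 (2.63%, against 4.95% of all genes tested) had an unadjusted p below 0.05 and DESeq2 called 0, with none for 10. Median log2 fold changes were 0.02 and 0.05, against 0.00 over all genes in both. Between long-term and acute restriction 0 of 76 passed (0.0127% over all genes, 0.114% in oligodendrocyte-like nuclei), 0 (against 3.40% of all genes tested) had an unadjusted p below 0.05 and DESeq2 called 0, with none for 12. Libraries did not overlap in 3 of 76 pairs under long-term restriction, all above old ad libitum. Under acute restriction 7 pairs lay above old ad libitum without overlap and 1 below (Slc16a1 in oligodendrocyte-like nuclei). Between the restrictions 2 pairs did not overlap, with long-term below acute. The share of such pairs over all genes was not counted.

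Slc16a1 in oligodendrocyte-like nuclei had the lowest unadjusted p among these pairs. Old mice fed ad libitum had 29.7, 15.9 and 19.9 CPM and young mice 22.6, 24.3 and 22.1. Acute restriction gave 3.79, 11.7 and 9.45 CPM, and the 4 long-term libraries had 6.16, 10.0, 16.0 and 12.4. All 3 acute libraries were below all old ad libitum libraries, and the long-term libraries overlapped them by 1. By edgeR's test across all genes of the class, the log2 fold change was -0.98 for acute restriction (SE 0.31, 95% interval -1.62 to -0.34, unadjusted p = 0.00396, adjusted p = 0.116) and -0.66 for long-term restriction (SE 0.29, 95% interval -1.24 to -0.07, adjusted p = 0.444). Counts were small, with 1 to 55 UMIs per library. Median UMIs per oligodendrocyte-like nucleus were 1577 to 1889 under acute restriction and 1988 to 3169 in old ad libitum mice, and with that median in the fit the acute value was -0.51 (adjusted p = 0.923). Endothelial markers in these nuclei summed to 11.4 to 21.6 CPM under acute restriction and 8.96 to 13.3 in old ad libitum mice. Granule neuron markers, mostly Dock10, summed to 3816 to 3866 CPM under acute restriction and 4123 to 4333 CPM in old ad libitum mice, with no overlap. The part of either list in the result was not tested.

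Pdk2 in CA1-like nuclei was 7.03, 6.01 and 5.81 CPM in old ad libitum and 8.72, 14.6, 9.40 and 11.5 under long-term restriction, with no overlap (0.76, SE 0.23, edgeR adjusted p = 0.956). In the same nuclei the 6 granule neuron markers summed to 340.4 to 363 and 382 to 498 CPM, and the 11 endothelial markers to 9.68 to 12.3 and 16.0 to 22.4 CPM, with none at 0. The 10 astrocyte markers went the other way, with 1388 to 1723 CPM in old ad libitum and 749 to 1266 CPM in long-term restricted mice. Over all mice Gpc5 made up 916 of the mean astrocyte sum of 1045 CPM, with Aqp4 at 0.931 and Gja1 at 1.26 CPM, and Rfx3 239.5 of the granule sum of 387. The class also pooled the main CA1-like cluster and the smaller one, which differed in Pdk2 (6.61 against 14.1 CPM in 11 mice). The part of these markers and of that mix in the result was not tested. Acute restriction gave 7.12, 7.78 and 10.2 CPM. Pdk2 had a positive log2 fold change under long-term restriction in each of the 7 classes tested, between 0.07 and 0.76, and none passed. Under acute restriction it was positive in 6 of 7 (-0.14 to 0.48), and for old minus young in 0 of 7 (-0.47 to -0.001). These 3 comparisons share the old ad libitum libraries, and the 7 classes come from the same mice. Ldhb in oligodendrocyte-like nuclei had a log2 fold change of 0.56 under long-term restriction (SE 0.23, adjusted p = 0.392). Granule-like nuclei were bounded for Slc2a3 at -0.17 to 0.19 under long-term and -0.11 to 0.26 under acute restriction.

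The list of 63 other genes of glucose, pyruvate, lactate and ketone handling was tested in the same fits. It was chosen with earlier results of these data known, so its counts beside the shares over all genes are descriptions only. Of 435 pairs of a listed gene and a class, 1 passed in ageing (1.49% of pairs over all genes), 1 under long-term restriction (0.0473%), 3 under acute restriction (0.222%) and 2 between the restrictions (0.0127%), and all but the last 2 were higher. Median log2 fold changes of the list were -0.02, -0.03, 0.00 and -0.03, against -0.02, 0.00, 0.00 and 0.00 over all genes. In ageing the pair was Ppargc1a, a regulator of mitochondrial genes, in granule-like nuclei. It was 71.7, 57.5 and 62.9 CPM in young and 74.7, 90.1 and 91.4 in old mice (0.57, SE 0.14, edgeR adjusted p = 0.0478). It did not pass with median UMIs in the fit (0.38, adjusted p = 0.605), with DESeq2 size factors (0.56, adjusted p = 0.0547) or with the span trend removed (0.46, adjusted p = 0.153), nor without any 1 of the old ad libitum or acute restriction libraries, young replicate 2 or 3, or long-term restriction replicate 1 or 4 (0.45 to 0.64, adjusted p = 0.0514 to 0.198). Oligodendrocyte markers in granule-like nuclei summed to 290.1 to 313.2 CPM in young and 319.3 to 367.5 in old ad libitum mice. St18 made up most of that sum, with a mean of 224.8 CPM over all mice. The part of these markers in the result was not tested.

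Pdk4, the fasting-induced kinase of pyruvate dehydrogenase, rose under acute restriction in oligodendrocyte-like nuclei. It was 9.91, 6.94 and 8.18 CPM in old ad libitum mice and 56.9, 31.8 and 56.3 under acute restriction, with no overlap, a log2 fold change of 2.49 (SE 0.30, edgeR adjusted p = 5.71e-06). Long-term restriction gave 15.4, 19.0, 10.0 and 16.4 CPM (0.95, SE 0.32, adjusted p = 0.231), and the difference from acute restriction passed (-1.53, SE 0.26, adjusted p = 0.0034). Without acute restriction replicate 3 that difference was -1.27 (adjusted p = 0.188), and with median UMIs in the fit it was also -1.27 (adjusted p = 0.193). DESeq2 gave it no adjusted p. Young ad libitum mice had 11.3, 18.8 and 17.3 CPM of Pdk4 in oligodendrocyte-like nuclei, above all old ad libitum libraries and overlapping the long-term ones. Old minus young was -1.165 (SE 0.389, edgeR adjusted p = 0.0608). In astrocyte-like nuclei Pdk4 was -0.27 under acute restriction (SE 0.26, adjusted p = 0.976).

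Hif3a, a hypoxia-inducible factor subunit, rose in the same nuclei. Old ad libitum mice had 22.3, 13 and 16.8 CPM. The acutely restricted mice had 136.6, 168 and 161 CPM and the long-term restricted mice 108, 37.5, 39.5 and 69.5. All restricted libraries lay above all old ad libitum ones. Log2 fold changes were 3.30 for acute (SE 0.31, edgeR adjusted p = 8.23e-06) and 1.82 for long-term restriction (SE 0.32, adjusted p = 0.0147), and long-term minus acute was -1.48 (SE 0.25, adjusted p = 0.0206). That last call was lost without any 1 of the acute restriction libraries or without young replicate 3 (-1.53 to -1.41, adjusted p = 0.0544 to 0.144), and with median UMIs in the fit (-1.46, adjusted p = 0.214), and DESeq2 gave it no adjusted p. The long-term call was lost without old ad libitum replicate 2 (1.62, adjusted p = 0.176) or replicate 4 (1.91, adjusted p = 0.114), and with median UMIs in the fit (1.80, adjusted p = 0.0657). Hif3a in astrocyte-like nuclei was 1.04 under acute (SE 0.36, edgeR adjusted p = 0.616) and 0.67 under long-term restriction (SE 0.34, adjusted p = 0.966). For neither Pdk4 nor Hif3a was the difference between classes tested. In oligodendrocyte precursor-like nuclei acute restriction gave 2.27 (SE 0.43, adjusted p = 0.0235), which was lost without any 1 of the old ad libitum libraries or without acute restriction replicate 3 (adjusted p = 0.107 to 0.455). It was also lost with median UMIs in the fit (1.97, adjusted p = 0.29), with the replicate block (1.74, adjusted p = 0.092) and with doublets kept (1.92, adjusted p = 0.166). Astrocyte markers in these nuclei summed to 4783 to 5012 CPM under acute restriction and 6445 to 6600 in old ad libitum mice. Gpc5 made up most of that sum, with a mean of 4992 CPM over all mice. The part of these markers in the result was not tested.

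**Figure D5:**
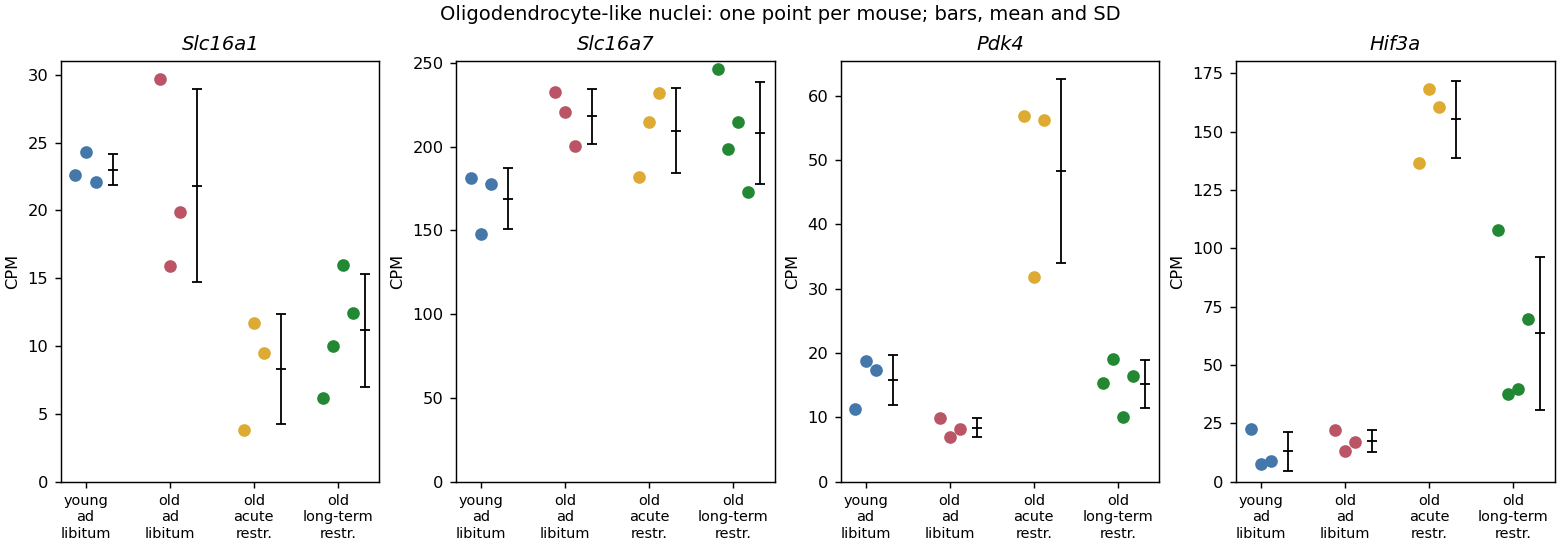
CPM (vertical axis, from 0) of Slc16a1, Slc16a7, Pdk4 and Hif3a in oligodendrocyte-like nuclei of each mouse, by group (horizontal axis), with black bars for mean and SD. Pdk4 and Hif3a of the 3 acute restriction libraries lie above all old ad libitum libraries, and Slc16a1 of the same libraries lies below them.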

How the data were processed

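Single-nucleus RNA of whole hippocampus was measured in 13 libraries. The deposited files hold raw UMI counts per gene and barcode, made by the authors with Cell Ranger 4.0.0 on mm10, per the submitters' processing notes. Whether intronic reads and strand were used in counting is not given in the sources used here, so reads of overlapping antisense genes (Hk1os with Hk1, for example), which have rows of their own, may be assigned to the wrong one.

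The filter kept 105427 barcodes, with 500 or more genes detected and no more than 5% of UMIs mitochondrial, and 7386 simulated-doublet neighbours (7.01%) were removed. Nuclei were clustered with scanpy 1.11.5 (2000 variable genes, 30 components, Leiden resolution 1), and clusters were named from marker lists. Counts were added up over the nuclei of a class in each mouse (at least 20 nuclei) and tested with edgeR 4.0.16 (TMM, filterByExpr, robust quasi-likelihood test, all groups in 1 fit, Benjamini-Hochberg within a class). Each edgeR SE was the absolute log2 fold change divided by the square root of the test's F. The 95% intervals were built from that SE. DESeq2 1.42.0 was an alternative. The span trend is a dependence of counts on gene length in the genome. Classes were compared by exact two-sided sign-flip tests of log2 CPM with a prior count of 2, within mice. The fits were tested on simulated data. In granule-like sums, 13.2% of known old minus young changes of 0.5 on the log2 scale were called, 45.7% of 1 and 94.8% of 2. In oligodendrocyte-like sums the shares were 3.17%, 32.8% and 96.6%. A pair that did not pass is therefore not shown to be unchanged. Shares of nuclei have 95% Wilson intervals.

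Named genes were all 9 genes, every gene of the related list that was called in a class, and the 3 genes most like each of the 9, among genes of at least 20 CPM in 1 class. One of these like genes is not reported here. The genes and lists were chosen with earlier results of these data known. P-values measure the spread between these libraries. A test of class differences in a gene's change was not run, because none of the 9 genes was called.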

Additional observations from a re-analysis of the deposited data

Results flagged for a closer look

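Slc16a7 in microglia-like nuclei was 293 CPM in long-term restriction replicate 3, from 45 UMIs, against 164 to 179 CPM in the other libraries of that group. It stood apart from its group by Dixon's criterion, which chance alone meets in about 1 in 20 groups, and 72 groups were checked. All 72 were of long-term restriction, since groups of fewer than 4 libraries were not checked.

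Slc16a1 had log2 fold changes of opposite sign with age in different classes, and neither passed. In endothelial-like nuclei it was 0.313, with both old libraries above both young ones (edgeR adjusted p = 0.987), and in subicular or cortical neuron-like nuclei it was -0.794, with all 3 old libraries below all 3 young ones (edgeR adjusted p = 0.17). The difference between the classes was not tested.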

How the results depend on the processing

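The number of the 9 genes called stayed at 0 in every comparison and setting except ageing with a replicate block, where it was 1: Slc16a7 in oligodendrocyte-like nuclei (0.55, edgeR adjusted p = 0.0273). Replicate numbers were not taken to pair the mice. In granule-like nuclei 11 of 16 same-numbered pairs had correlated deviations above 0.1 (-0.12 to 0.78). The pairs among the 4 libraries numbered 1 were all above it (0.37 to 0.78). Pairs of different numbers are not set beside these. Whether the numbers mark a block shared across groups was not tested. Of 558 recomputed differences between classes, 553 kept their direction and side of the threshold. Without the libraries numbered 1, chosen after seeing the data, endothelial-like minus astrocyte-like Slc2a1 was 5.10 and endothelial-like minus oligodendrocyte-like Slc16a1 was 4.65 (adjusted p = 0.0694 for both); 5 mice were left, which cannot pass. Oligodendrocyte-like minus astrocyte-like Slc16a1 turned to -0.11 (adjusted p = 0.604) after thinning; the cause was not tested. Granule-like minus oligodendrocyte-like Ldha passed with a prior count of 0.5 (0.37, adjusted p = 0.0303) and at resolution 2 (0.34, adjusted p = 0.018); the cause was not tested.

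Counts over the list of 63 genes were less stable. In ageing, 1 call became 19 with a term for the libraries numbered 1, 10 with the replicate block, 7 without those libraries, 4 with no filter, 2 by DESeq2, and 0 with median UMIs in the fit, DESeq2 size factors or the span trend removed. Leaving out 1 library gave 0 to 3. The 1 long-term call became 2 with the block and 0 with median UMIs, the 3 acute calls became 5 with no filter and 6 without the libraries numbered 1, and the 2 calls between restrictions became 0 with median UMIs and 4 without the libraries numbered 1, and DESeq2 gave neither of them an adjusted p. Over all genes, the 1642 ageing calls ranged from 50 with median UMIs to 7072 without the libraries numbered 1. Pdk4 and Hif3a in oligodendrocyte-like nuclei under acute restriction passed in every setting that gave an adjusted p. Low counts limit Slc16a1 and Ldha in oligodendrocyte-like nuclei, with as few as 1 UMI in a library.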
